A study of Mus musculus with 2 samples.

Results

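Among 263 epithelial cells of the mouse oviduct at postnatal day 4 (P4), 65 cells (24.7%, exact 95% binomial interval 19.6 to 30.4) had 1 or more unique molecular identifiers (UMI, each counting 1 captured RNA molecule) of Foxj1, and 198 had 0. These 65 cells are the subject here, and they were chosen by their Foxj1 count alone. The whole series holds 669 cells in 2 single-cell libraries, both of C57BL/6 mice: P4 (263 cells) and adult at estrus (406 cells with distinct barcodes). Oviduct cells had been dissociated with enzymes and sorted, which removed dead cells and, with antibodies to Epcam and CD45, enriched epithelium. Each library was prepared with the Chromium Single Cell 3' chemistry (V2) of 10x Genomics. How many animals went into each library is not given in the sources used here. With 1 library per age there is no replicate. Intervals below therefore cover counting error only, and no p-value is given. No cell barcode occurred in both libraries.

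Foxj1 is a forkhead transcription factor that switches on the genes of motile cilia. A cell on its way to carrying many cilia first expresses Mcidas, Ccno, Myb and their partners, which commit it to the fate, and then multiplies its centrioles with proteins such as Deup1. The centrioles dock at the surface as basal bodies, intraflagellar transport builds the shafts, and dynein arms and other parts of the axoneme make the cilia beat. In the oviduct such multiciliated cells stand beside secretory cells and move the egg and the fluid around it.

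For the genes whose values carry the result, stretches of promoter are shown with a short motif that RFX transcription factors, partners of Foxj1 in cilium genes, are known to recognise. Capitals mark each match to GTTGCC or its reverse complement GGCAAC. Each stretch is 100 bases of the window from 250 bases before to 50 after a RefSeq start, on GRCm38.p6, read 5′ to 3′ on the gene's strand. Ccno (chr13:112987552-112987651, plus strand) is an early gene. Ccdc153 (chr9:44240475-44240574, plus strand), Tekt1 (chr11:72361883-72361982, minus strand) and Fam183b (chr11:58801961-58802060, minus strand) are late genes. None of the 4 stretches overlaps an annotated exon.
Ccno: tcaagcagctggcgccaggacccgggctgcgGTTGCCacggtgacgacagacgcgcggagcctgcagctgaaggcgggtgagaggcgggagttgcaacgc
Ccdc153: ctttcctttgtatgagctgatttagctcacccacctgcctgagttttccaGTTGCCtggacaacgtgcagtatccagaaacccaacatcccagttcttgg
Tekt1: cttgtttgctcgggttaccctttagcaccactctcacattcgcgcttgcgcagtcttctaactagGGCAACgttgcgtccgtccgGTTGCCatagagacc
Fam183b: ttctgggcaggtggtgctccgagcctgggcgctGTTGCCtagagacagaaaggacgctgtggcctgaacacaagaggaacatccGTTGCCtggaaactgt

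Over the full 300-base windows, on both strands, GTTGCC was found for 14.1% of the 27025 genes with an entry. The share was 32.1% of early cilium genes (9 of 28), 44.2% of middle (23 of 52), 43.7% of late (31 of 71) and 9.09% of secretory genes (2 of 22). A second motif, TTCCCGC, which resembles the site of E2F factors that act with Mcidas, was found for 5.29% of all genes, 21.4% of early (6 of 28), 3.85% of middle (2 of 52), 7.04% of late (5 of 71) and 9.09% of secretory genes (2 of 22). The forkhead-type motif TGTTTAC stood in 4.05% of all windows' genes, 3.57% of early (1 of 28), 0 of 52 middle, 5.63% of late (4 of 71) and 0 of 22 secretory genes. These 3 motifs share no run of letters that would make 1 match count as another. They are matches of letters, and binding was not measured. The early list also holds cell cycle genes such as Cdk1, Ccnb1, Plk1 and Tfdp1, whose part in the TTCCCGC share was not tested.

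Foxj1 (chr11:116330704-116335499 in the annotation of GRCm38) was spread very unevenly over the 65 cells. Of them 37 had 1 UMI, 13 had 2, 1 had 3, 5 had 4, and 9 had between 7 and 18. The 15 cells with 3 or more, a class chosen after the data were seen, held 66.3% of all Foxj1 UMI (124 of 187). Because Foxj1 chose the cells, its level in them is a description and not a finding.

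Detection followed depth. The median cell had 7087 UMI where Foxj1 was 0, 8418 with 1 Foxj1 UMI, 8431 with 2 to 4, and 18552 with 5 or more. In 4 groups of 65 or 66 cells ordered by depth, 9.09%, 21.2%, 24.6% and 43.9% had a Foxj1 UMI, from shallowest to deepest. Of the 15 cells with 3 or more, 12 lay in the deepest group (66 cells, 9432 to 23372 UMI) and 1 in each of the other 3. When every cell was thinned to 1000 UMI, 15 of 263 cells (5.70%) kept a Foxj1 UMI. The 9 cells with 5 or more had less ribosomal protein RNA (median 19.2% of UMI, against 24.6% at 0), and their mitochondrial share (0.723% against 0.826%) was close to that of the others. The part of depth in the differences below was not tested across all genes. A comparison within the 66 deepest cells is given for it.

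**Figure D1:**
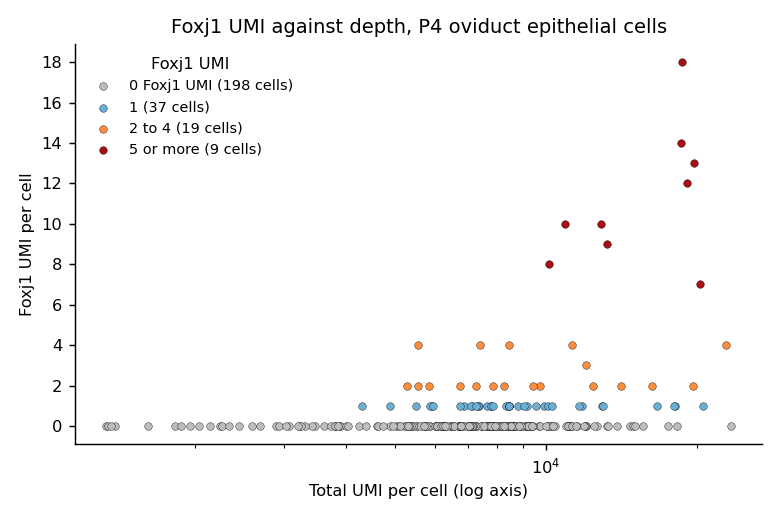
Foxj1 UMI per cell (vertical) against total UMI per cell (horizontal, log axis) for the 263 P4 cells, coloured by Foxj1 class. Cells with 1 or 2 UMI are found at most depths, and all 9 cells with 5 or more hold at least 10136 UMI.

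Foxj1 UMI were also found outside the adult clusters that carry multiciliated genes. In adult clusters 0 and 4 of the authors, whose leading genes are secretory, 10 of 161 cells (6.21%) had a Foxj1 UMI at a median depth of 3221, and 0 of 161 had 3 or more, which allows a share of up to 2.27% by the exact interval. In adult clusters 1 and 3, which carry multiciliated genes, 154 of 220 cells had one at a median depth of 3194.5. After thinning, the adult shares were 1.53% and 53.5%. At P4, cells with exactly 1 Foxj1 UMI made up 14.1% of cells at a median depth of 7585 over the library. The source of single Foxj1 UMI was not tested at either age.

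The authors' own P4 clusters set the strongly positive cells on one side. Cluster 0 held 54 of the 65 cells, and all 15 with 3 or more. Cluster 1 held 0 of 95 such cells, with an upper bound of 3.81%. In all, 32.1% of cluster 0 (54 of 168) and 11.6% of cluster 1 (11 of 95) had a Foxj1 UMI, at median depths of 7856 and 7029. In the authors' clustering of both ages together, 6 of the 9 cells with 5 or more fell in cluster 0, which also took 178 of the 183 cells of adult cluster 1. That merged cluster held 14 P4 cells, of which 7 had 0 Foxj1 UMI. The other 3 of the 9 stayed in cluster 1, which held 225 of the 239 P4 cells of that table.

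As a check of the sort, Epcam, the adhesion protein used for sorting, had a UMI in 59 of the 65 cells, and Ptprc, which encodes CD45, had 0 UMI in every P4 cell. The 5 erythroid genes also had 0 UMI in the 65 cells. Smooth muscle genes summed to 4.17 UMI per 10000 in these cells and 4.83 in the others, and stromal genes to 5.85 and 6.38. One endothelial list gene differed: Plvap, a protein of endothelial pores, rose from 6 UMI in the 198 cells to 39 in the 65, of which 26 were in the 9 strongest cells. The defining endothelial genes stayed near 0 in the 65 cells, with 5 UMI of Pecam1, 3 of Cdh5, 2 of Kdr and 0 of Emcn.

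The question of the first comparison is which genes go with Foxj1. Levels are UMI of a gene or list per 10000 UMI of the pooled cells, with exact 95% Poisson intervals. Folds include a pseudocount of 0.1 per 10000. A gene was measured if at least 10% of cells on the higher side had a UMI, and called if it differed at least 2-fold. Of 9415 measured genes 198 were higher in the 65 cells (2.1%) and 35 lower (0.372%), and the median log2 fold of all of them was 0.04. Cilium genes led the higher side. Apart from Foxj1 and the poorly described BC051019 (46 UMI against 0, at least 32.3-fold), the 15 largest folds belonged to Deup1, Dynlrb2, Ccdc153, Myb, Meig1, Riiad1, Rsph1, Fam183b, Ccno, Tppp3, Cdc20b, Tekt1 and Dnah12. All of these are genes of multiciliated cells.

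Early genes, meaning fate regulators and centriole multiplication, were higher for 10 of 25 measured members of 32 listed (median log2 fold 0.80). Late genes, meaning dynein arms, axoneme and markers of mature cells, were higher for 40 of 50 measured members of 89 listed (median 1.56). No member of either list was lower. Some late genes passed the 10% share only through the Foxj1-detected side and so had to differ. The same limit applies below wherever measured list genes are counted or their median is given. The summed levels that follow use every listed gene. Summed early genes stood at 12.6 (11.7 to 13.4) against 5.06 (4.70 to 5.44), a ratio of 2.48 (2.25 to 2.75). Summed late genes stood at 37.3 (35.9 to 38.8) against 7.20 (6.77 to 7.66), a ratio of 5.18 (4.82 to 5.57).

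Almost all of this came from the cells with more than 2 Foxj1 UMI. The 37 cells with exactly 1 were close to cells with 0: early genes stood at 5.31 (4.57 to 6.14) against 5.06, a ratio of 1.05 (0.89 to 1.24), and late genes at 8.30 (7.37 to 9.32) against 7.20, a ratio of 1.15 (1.01 to 1.31). Across the threshold of the rule, then, cells just inside (1 UMI) and just outside (0 UMI) barely differed in cilium genes. With exactly 1 UMI 48 of 9150 measured genes were higher (0.525%) and 103 lower (1.13%), with 1 early gene, Ccp110, and 2 late genes, Dnah12 and Dnal1, among the higher and 2 late genes among the lower. The 13 cells with exactly 2 had early genes at 6.47 (5.16 to 8.02) and late genes at 10.2 (8.54 to 12.1). Cells with 1 or 2 UMI together had 24 of 9332 genes higher (0.257%) and 51 lower (0.547%), with 0 early and 0 late genes among the higher and 1 late gene among the lower. With 2 or more UMI 636 of 10550 genes were higher (6.03%) and 176 lower (1.67%), among them 17 of 31 measured early and 68 of 74 measured late genes higher. With 3 or more UMI 1121 of 10785 genes were higher (10.4%) and 477 lower (4.42%). Of measured list genes 18 of 30 early and 76 of 79 late genes were higher (medians 1.54 and 2.47, against 0.12 over all genes). Summed over every listed gene, early genes stood at 28.1 (25.9 to 30.5) and late genes at 101 (97.0 to 106) in these cells.

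To narrow the range of depth, cells were also compared within its upper end. Within the 66 deepest cells, a comparison chosen after the data were seen, 12 cells with 3 or more Foxj1 UMI were set against 37 cells with 0. The 12 cells were still deeper, with a median of 15892 UMI against 11255 in the 37. There 1311 of 11544 genes were higher (11.4%) and 610 lower (5.28%). Late genes were 16.2-fold higher in sum (14.4 to 18.3) and early genes 4.86-fold (4.20 to 5.65), with 75 of 79 measured late and 17 of 31 measured early genes higher. Deup1 alone had 90 UMI in these 12 cells and 1 in the 37.

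To describe the order of the program, cells were set out by Foxj1 UMI: 0 (198 cells), 1 (37), 2 to 4 (19) and 5 or more (9). These classes are not times, since all cells come from 1 age. Cilium genes did not rise in step. From 0 to 5 or more, early genes went through 5.06, 5.31, 11.1 (9.71 to 12.7) and 31.9 (29.1 to 35.0), and late genes through 7.20, 8.30, 16.8 (15 to 18.7) and 135 (129 to 141). In the class of 2 to 4, early genes were thus at 34.9% (29.5 to 41.1) of their level in the strongest cells and late genes at 12.5% (11 to 14). That class mixes unlike cells. Its 13 cells with exactly 2 UMI had the levels given above, 6.47 for early and 10.2 for late genes, whereas its 6 cells with 3 or 4, split off after the data were seen, had early genes at 20.01 (16.8 to 23.7) and late genes at 29.3 (25.4 to 33.7). In those 6 cells early genes were at 62.6% (51.3 to 76.1) of the strongest cells' level, middle genes (basal body, transport and dynein assembly) at 44.5% (37.9 to 51.9) and late genes at 21.7% (18.7 to 25.2).

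By role, the share of the strongest cells' level at 2 to 4 UMI fell into high and low groups, with the level of 0-UMI cells included. Fate regulators were at 34.8% (27.7 to 43.4), centriole genes 35.0% (27.2 to 44.8), basal body genes 35.4% (29.7 to 42.1) and intraflagellar transport genes 34.0% (27.7 to 41.6). Dynein assembly factors, which preassemble the motors in the cytoplasm, were at 18.8% (13.8 to 25.4), mature markers 13.5% (11.1 to 16.3), the axoneme 13.0% (10.9 to 15.3) and the dynein arms 8.38% (5.73 to 11.9). In the 6 cells with 3 or 4 UMI alone, the same shares were 63.8% for fate regulators, 61.2% for centriole, 50.5% for basal body and 45.9% for transport genes, 31.2% for dynein assembly, 23.2% for the axoneme, 21.7% for mature markers and 17.4% for the dynein arms. Basal body and transport genes are also expressed in cells with 0 Foxj1 UMI (7.75 and 4.98 per 10000). Counting only the excess over those cells, the class of 2 to 4 had 22.6% for early, 11% for middle and 7.52% for late genes. By role the excess was 22.4% for fate regulators, 22.8% for centriole, 14.3% for transport and 10.8% for basal body genes. It was 8.93% for the axoneme, 7.30% for dynein assembly, 6.31% for mature markers and 5.87% for the dynein arms. On this measure basal body and transport genes did not stand with the early roles.

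**Figure D2:**
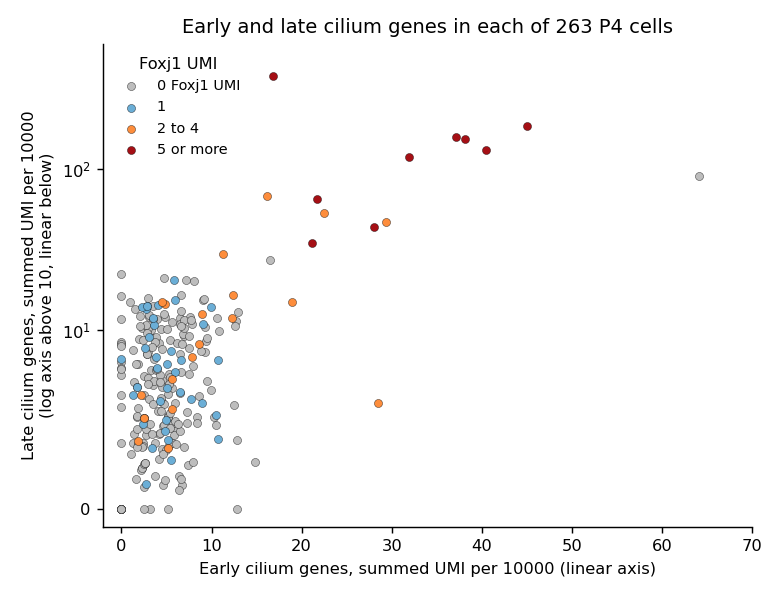
Summed level of late cilium genes (vertical, log axis above 10 and linear below) against early cilium genes (horizontal, linear), in UMI per 10000, 1 point per P4 cell, coloured by Foxj1 class. The 9 cells with 5 or more Foxj1 UMI lie at 34.8 to 380 for late genes. The cell highest for late genes is the lowest of these 9 for early genes, at 16.8.

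The fate regulators were higher from 3 Foxj1 UMI on. Mcidas, the coiled-coil activator at the head of the program, had 5 UMI in the 198 cells with 0 Foxj1, 1 in the cells with 1, 6 in those with 2 to 4 and 29 in those with 5 or more (levels 0.03, 0.03, 0.31 and 2.02). Ccno, a cyclin-like protein needed to make many centrioles, had 13, 2, 17 and 50 UMI (0.09, 0.06, 0.87 and 3.49). Myb, a transcription factor active early in the program, had 19, 4, 21 and 82 UMI (0.13, 0.12, 1.07 and 5.72). All 3 were within counting error of 0-UMI cells at exactly 1 Foxj1 UMI. At 2 to 4 the UMI lay mostly in the 6 cells with 3 or 4, which held 5 of 6 for Mcidas, 15 of 17 for Ccno and 18 of 21 for Myb.

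Cdc20b, the neighbour of Ccno and Mcidas on chromosome 13, had 1, 0, 13 and 21 UMI over the 4 classes, at 0.66 (0.35 to 1.14) with 2 to 4 and 1.46 (0.91 to 2.24) with 5 or more, so that its intervals in those classes overlapped. All 13 UMI at 2 to 4 were in the cells with 3 or 4. Trp73, a p53 relative that acts upstream of Foxj1, had 2, 0, 4 and 9 UMI, and Foxn4 had 1, 0, 0 and 8. Gmnc, which starts the program ahead of Mcidas, was never seen with Foxj1: 5 UMI in 5 of the 198 cells and 0 in the 65, where a count of 0 allows up to 0.0439 per 10000, above the 0.0347 of the other cells. A difference in Gmnc was not detectable at this depth. Of 13 measured fate regulators 5 were higher in the 65 cells and 0 lower (Mcidas, Ccno, Myb, Cdc20b and Trp73).

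Among centriole genes 5 of 12 measured were higher and 0 lower. Deup1, the scaffold on which extra centrioles form, showed the largest fold after Foxj1 and BC051019, at 93 UMI against 3 (ratio interval 21.7 to 322). By class it had 3, 1, 17 and 75 UMI, and 15 of the 17 were in cells with 3 or 4 Foxj1 UMI. In the 9 strongest cells its count ranged from 1 to 17 with a median of 7, and all 9 had at least 1. The others that were higher were Ccp110 (24 UMI against 12), Cntrob (19 against 7), Cep152 (16 against 9) and Stil (11 against 3), all centriole proteins. Plk4, the kinase that starts centriole copying, stood at 0.36, 0.26, 0.66 and 1.05 over the classes. Cdk1, which also drives mitosis, stood at 0.49, 0.61, 1.18 and 1.74.

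**Figure D3:**
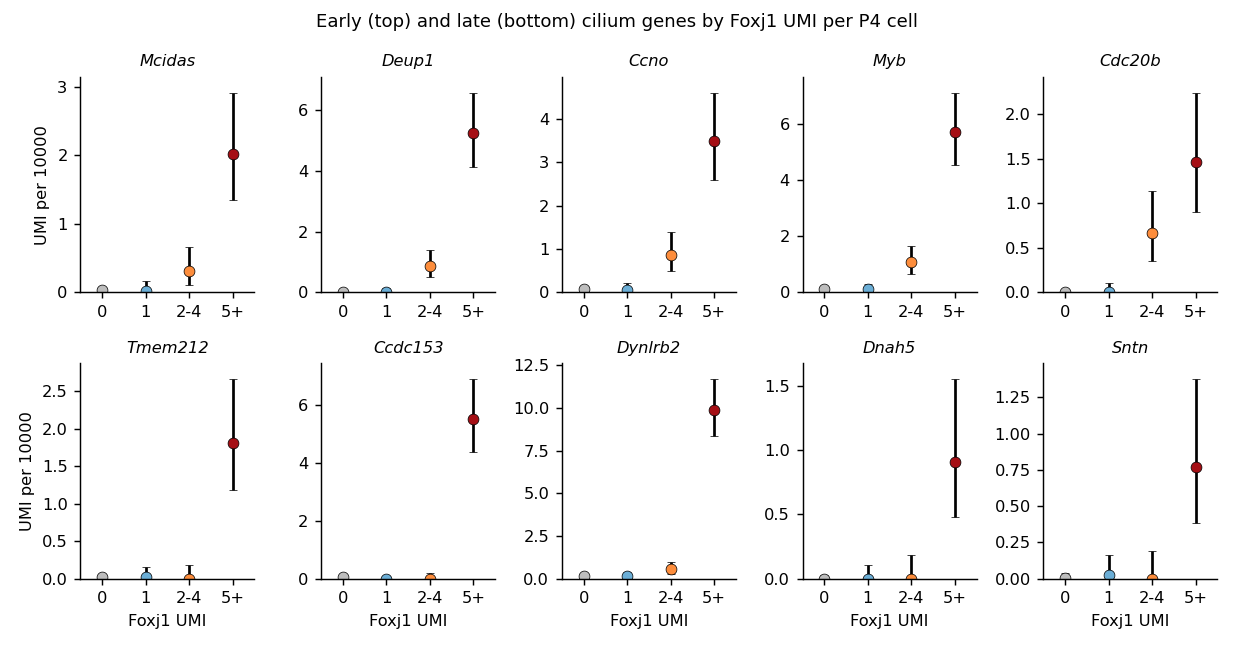
Level (UMI per 10000, linear axes from 0) of cilium genes in P4 cells with 0, 1, 2 to 4 and 5 or more Foxj1 UMI. Points are pooled levels and bars exact 95% Poisson intervals. Early genes such as Deup1 (0.87 against 5.23) are above the 0-UMI cells at 2 to 4, where Ccdc153 has 0 UMI.

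The middle genes changed less. Of 20 measured basal body genes 4 were higher and 0 lower, among them Cep83, Cep41 and Cetn4. Of 21 transport genes 3 were higher (Ift22, Ttc26 and Bbs9), and of 10 dynein assembly factors 2 (Zmynd10 and Ruvbl2). With 3 or more Foxj1 UMI those counts were 15 of 22, 19 of 25 and 12 of 15, each a larger share than among early genes. At 5 or more, the ratio to cells with 0 was 3.63 for basal body, 4.34 for transport and 8.05 for dynein assembly genes. For early genes that ratio was 6.32. Zmynd10 was high in the strongest class alone, at 0.10, 0.09, 0.20 and 3.35 per 10000.

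Some late genes were seen at 2 to 4 Foxj1 UMI, and others had 0 UMI there. Rsph1, a radial spoke protein, stood at 0.12, 0.09, 0.66 (0.35 to 1.14) and 5.09 (3.99 to 6.40), and Dynlrb2, a dynein light chain, at 0.15, 0.17, 0.56 (0.28 to 1.01) and 9.90 (8.34 to 11.7). Tekt1, a tektin of the axoneme, had 9, 7, 12 and 36 UMI, and Dnah12, a dynein heavy chain, 2, 5, 7 and 23. In contrast Ccdc153 had 9, 0, 0 and 79 UMI, Tmem212 3, 1, 0 and 26, the apical protein gene Sntn 1, 1, 0 and 11, and the outer arm heavy chain Dnah5 0, 0, 0 and 13. The 19 cells with 2 to 4 Foxj1 UMI thus held none of these 4 transcripts, with an upper bound of 0.189 per 10000 for each. In the 6 cells with 3 or 4 alone that bound is 0.547, and cells with 0 Foxj1 UMI did hold 9, 3 and 1 UMI of the first 3 genes.

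The latest genes also leaned on 1 cell. Of the 26 Tmem212 UMI in the strongest class, 21 were in 1 cell with 8 Foxj1 UMI and 10136 UMI in all, as were 28 of 79 UMI of Ccdc153, 9 of 11 of Sntn and 8 of 13 of Dnah5. The same cell held 1 Deup1 UMI, 0 of Mcidas, 1 of Ccno and 6 of Myb. Its late genes, at 380 per 10000, were the highest and its early genes, at 16.8, the lowest of the 9. The cell with 18 Foxj1 UMI held both early and late transcripts, with 15 UMI of Deup1, 9 of Mcidas, 20 of Ccdc153 and 35 of Dynlrb2. It was deep, at 18659 UMI in all. Doublets were not called, and whether any of the 9 strongest cells is a doublet was not tested. At the other end, a cell with 4 Foxj1 UMI had 6 of Myb, 4 of Cdc20b, 3 of Ccno and 1 of Mcidas, and 0 of Ccdc153, Tmem212 and Dynlrb2.

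Cell by cell, forming genes (Mcidas, Deup1, Ccno, Myb, Cdc20b and Gmnc) were compared with mature genes. The outcome over the 65 cells depended on which mature genes were used. With 2 UMI as the minimum, 11 of the 65 cells had forming genes and no UMI of Tmem212, Ccdc153, Sntn, Cdhr3 or Dnah5. Of these 11, 8 were among the 19 cells with 2 to 4 Foxj1 UMI and 2 among the 9 with 5 or more. Both sets were present in 7 cells, all with 5 or more. No cell of the 263 had 2 UMI of these 5 genes with fewer than 2 forming UMI. The 5 genes include the 4 just described as absent at 2 to 4, and a wider set gave other counts. For 9 markers of multiciliated cells (Tmem212, Ccdc153, Dynlrb2, Mlf1, Fam183b, Rsph1, Tppp3, Sntn and Cdhr3), at the same minimum, 14 of the 65 cells had markers only, 4 forming genes only and 14 both. Over all 263 cells these counts were 42, 10 and 20. Of the 14 cells with markers only, 10 had 1 Foxj1 UMI and 4 had exactly 2. With 3 or more Foxj1 UMI, 0 cells had markers only, 2 forming genes only and 13 both. Among the 198 cells with 0 Foxj1 UMI, 28 had markers only. After thinning to 1000 UMI, the forming genes had a UMI in 4.04%, 5.41%, 21.1% and 77.8% of cells over the Foxj1 classes, and the 9 markers in 10.1%, 13.5%, 15.8% and 88.9%. With Foxj1 added to these markers, 10 genes in all, a threshold of 30 UMI per 10000 separated 6 cells (35.6 to 133) from the others (17.3 at most), so the split partly uses the gene that chose the cells. On the 9 markers alone 5 cells passed it, and the sixth stood at 29.3. Without those 6, 48 genes were higher in place of 198, with 5 early and 13 late genes among them.

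Tubulins split by gene. Tuba1a stood at 1.57, 1.51, 2.04 and 12.8 over the Foxj1 classes and Tubb4b, a tubulin of cilia, at 1.64, 1.04, 1.64 and 13.3. Tubb5, at 9.35, 8.13, 10.3 and 5.37, went the other way, as did Tubb2a (0.50 against 0.07 in the end classes) and Tubb2b (0.63 against 0.21). Over the 65 cells Tuba1a and Tubb4b were the 2 of 12 measured members called, both higher.

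Secretory genes were lower in the cells with 3 or more Foxj1 UMI. In the 65 cells 1 of 24 measured secretory genes was lower, Serpina1e (24 UMI against 153), and 0 were higher, with a median log2 fold of −0.20. Summed over the list, the level was 33.5 (32.6 to 34.5) at 0 Foxj1 UMI, 31.6 (29.7 to 33.5) at 1, 28.9 (26.6 to 31.4) at 2 to 4 and 21.8 (19.5 to 24.4) at 5 or more. Within the class of 2 to 4 it was 33.7 (30.6 to 37.0) at exactly 2 and 19.9 (16.6 to 23.5) at 3 or 4. Cells did not sort cleanly. Over 8 secretory markers (Ovgp1, Pax8, Wfdc2, Msln, Krt7, Muc1, Clu and Agr2) the strongest cells ranged from 5.93 to 20.7, inside the range of 0 to 57.9 of the cells with 0.

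Ovgp1, the oviduct glycoprotein that coats the egg, stood at 2.21 (1.97 to 2.47), 2.38 (1.89 to 2.95), 1.99 (1.42 to 2.72) and 0.84 (0.43 to 1.46). Pax8, a transcription factor of the secretory lineage, stood at 1.40, 1.42, 1.58 and 0.77 (0.38 to 1.37), and Wfdc2, a secreted protease inhibitor, at 12.8, 11.9, 10.3 and 7.46 (6.12 to 9.02). For Ovgp1 and Wfdc2 the intervals of the end classes were apart. These classes also differ in cluster, since all 9 strongest cells but 114 of the 198 cells with 0 were in P4 cluster 0. With 1 or more Foxj1 UMI, the log2 fold of Ovgp1 was 0.42 within cluster 0 and −0.17 over both clusters. In the 6 cells with 3 or 4 Foxj1 UMI, Ovgp1 had 2 UMI, at 0.296 (0.0359 to 1.07), against 37 UMI, at 2.89 (2.03 to 3.98), in the 13 cells with exactly 2. Pax8 had a UMI in 7 of the 9 strongest cells and Wfdc2 in all 9, at a median depth of 18552. In the 198 cells with 0, at a median depth of 7087, Pax8 had a UMI in 115 and Wfdc2 in 191. With 3 or more Foxj1 UMI, 6 of 25 measured secretory genes were lower: Calb1 (2 UMI against 199, ratio of 0 over 3 or more between 3.98 and 121), Car2, Serpina1e, Ovgp1, Clu and Lcn2. Agr2, a chaperone of secreted mucins, was the 1 that was higher (14 UMI against 25). Of these, Calb1, Car2, Serpina1e, Ovgp1 and Agr2 also passed 2-fold within the 66 deepest cells, where Pax8 was lower as well (log2 fold −1.02).

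Regional genes, which mark positions between the ovary and the uterus, were compared both over all P4 cells and within a cluster. In the 65 cells 1 of 26 measured was lower, Lgi1 (8 UMI against 91), with a median of −0.11 and a summed level of 16.4 against 18.1, a ratio of 0.91 (0.85 to 0.97). Within P4 cluster 0 alone, the comparison was between cells that the authors grouped together. There 54 cells with Foxj1 and 114 without gave 15.7 against 15.6, a ratio of 1.01 (0.93 to 1.10), and 0 of 26 regional and 0 of 24 secretory genes passed 2-fold. In that comparison 300 of 9572 genes were higher (3.13%) and 56 lower (0.585%), and 11 of 26 early and 51 of 58 late genes were higher. With 3 or more Foxj1 UMI against 0 in cluster 0, 1202 of 10802 genes were higher (11.1%) and 481 lower (4.45%). Regional genes then had a ratio of 0.829 (0.725 to 0.945), against 0.712 (0.626 to 0.807) over both clusters, with 1 of 26 higher and 3 lower, and secretory genes 0.793 (0.715 to 0.877) with 1 of 25 higher and 6 lower. Among cilium genes 20 of 30 early and 75 of 79 late genes were higher.

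Wt1, expressed towards the ovary, stood at 1.17, 1.51, 1.33 and 1.46 over the classes, and its intervals overlapped throughout. Pax2, expressed towards the uterus, had 34 UMI in the 198 cells and 12 in the 65 (0.24 and 0.18 per 10000), with 0 in the 9 strongest cells. At 3 or more Foxj1 UMI 7 of 26 regional genes were lower (among them Ptpn22, Sox11, Lgi1, Ntf3, Pax2 and Wnt7a) and 2 higher (Hoxd8 and Nr2f1). Within the 66 deepest cells Meis1 was lower and Hoxd8 higher. Hoxd8 rested on 14 UMI there against 8, and it stood at 0.19 (0.12 to 0.27) and 0.77 (0.38 to 1.37) in the end classes.

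**Figure D4:**
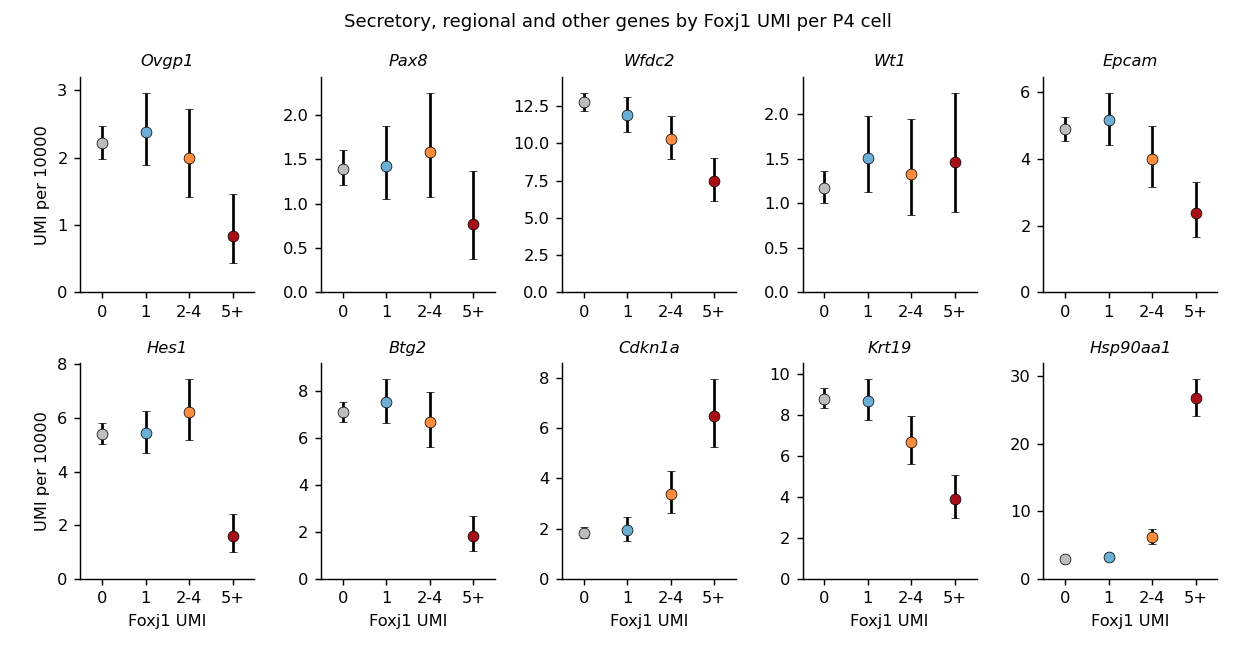
Level (UMI per 10000, linear axes from 0) of secretory, regional, Notch and other genes in P4 cells with 0, 1, 2 to 4 and 5 or more Foxj1 UMI. Points are pooled levels and bars exact 95% Poisson intervals. Ovgp1 and Hes1 are lower at 5 or more (0.84 and 1.60) than at 0, and their points at 2 to 4 rest on the cells with exactly 2 UMI. Wt1 overlaps in every class.

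Notch signalling holds neighbours of a forming multiciliated cell back from that fate. In the 65 cells 0 of 12 measured Notch genes passed 2-fold in either direction (median 0.10). Hes1, a Notch target that represses the fate, stood at 5.40 (5.03 to 5.80), 5.43, 6.23 (5.18 to 7.44) and 1.60 (1.02 to 2.41), with the lowest level in the strongest class. The class of 2 to 4 rested on 1 cell with 2 Foxj1 UMI, which held 50 of its 122 Hes1 UMI, and without it the level was 3.87 (3.03 to 4.88). In the 6 cells with 3 or 4, Hes1 stood at 1.48 (0.71 to 2.73), close to the strongest class. The receptor Notch2 stood at 2.09, 1.80, 2.96 and 0.77 (0.38 to 1.37), and the ligand Jag1 at 0.66, 0.84, 0.92 and 0.84. With 3 or more Foxj1 UMI Hes1 and Rbpj, the DNA-binding partner of Notch, were lower and Lfng, which modifies the receptors, was higher, of 12 measured. Hes1 stayed 2-fold lower within the 66 deepest cells (log2 fold −1.28).

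Several other genes moved with the strongest class. Hsp90aa1, a chaperone that also serves dynein assembly, stood at 2.93, 3.22, 6.13 (5.08 to 7.33) and 26.7 (24.1 to 29.5). It was the 1 of 16 measured stress genes that was higher, whereas Atf3, Ier3, Nr4a1, Dusp1, Junb and Zfp36 were lower at 3 or more. Cdkn1a, which halts the cell cycle, rose through 1.83, 1.94, 3.37 and 6.49, and Btg2, another brake on division, was at 7.10, 7.52, 6.69 and 1.81. At 3 or 4 alone Btg2 stood at 2.37 (1.36 to 3.85) and at exactly 2 at 8.97 (7.40 to 10.8). Epithelial keratins diverged, with Krt8 at 5.62 and 11.6 in the end classes and Krt19 at 8.81 and 3.91.

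By the same rule of size, the genes furthest down at 3 or more Foxj1 UMI included Edn1, the peptide endothelin 1 (3 UMI against 379, ratio of 0 over 3 or more between 6.28 and 90.1), and Stc1, the hormone stanniocalcin 1 (2 against 183, 3.66 to 111). Col9a2, a collagen chain, had 0 UMI against 154, at least 7.52-fold lower. Calb1 and Car2, above, were also among these 15. For the 65 cells together the genes furthest down were Lgi1, Serpina1e, Ptpn4, Junos, Flrt2 and Prrg1, the last 4 at 1 or 2 UMI.

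Set against the 168 adult cells with a Foxj1 UMI, over the 26898 genes in both tables, the P4 cells were high in early and low in late genes. Age and library cannot be told apart here. Of 8573 measured genes 1180 were higher at P4 (13.8%) and 1316 lower (15.4%). Of 26 measured early genes 12 were higher and 3 lower, and of 83 late genes 0 were higher and 77 lower. Summed early genes were at 160% (144 to 178) of the adult level, middle genes at 45.7% (43.3 to 48.2) and late genes at 14.3% (13.7 to 14.9). The early list holds genes that also act in the cell cycle, among them Cdk1 (69 UMI at P4 against 2 in the adult), Ccnb1 (25 against 1), Plk1 (7 against 0) and Tfdp1 (80 against 0). Without these 4, chosen after the data were seen, early genes were at 127% (114 to 142), and at 315% (280 to 355) in the 15 cells described next.

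The 15 P4 cells with 3 or more Foxj1 UMI were nearer to the adult for late genes and further above it for early ones. They stood at 357% (318 to 401) for early, 88.9% (83.2 to 94.9) for middle and 38.6% (36.9 to 40.4) for late genes. The roles followed a graded order: fate regulators 480%, centriole genes 271%, dynein assembly 112%, basal body 104%, transport 67.0%, axoneme 54.3%, dynein arms 43.0% and mature markers 27.0%. In this comparison 1477 of 9214 genes were higher (16%) and 1266 lower (13.7%).

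Single genes spanned a wide range. Deup1 and Myb had 13 and 31 UMI in all 168 adult cells, and Mcidas and Cdc20b had 0. Ccno had 4. In the 15 P4 cells the same genes had 90, 100, 34, 34 and 65 UMI. At the late end Tekt1 (103%), Meig1 (109%) and Tubb4b (102%) were near the level of the 168 adult cells. Rsph1 (58.1%) and Dynlrb2 (52.6%) were between, and Ccdc153 (18%), Dnah5 (13.7%), Tmem212 (8.58%) and Sntn (7.0%) were far under it. Not every list gene kept to its list: Ccdc78, a centriole gene, was at 11.6% of the adult.

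**Figure D5:**
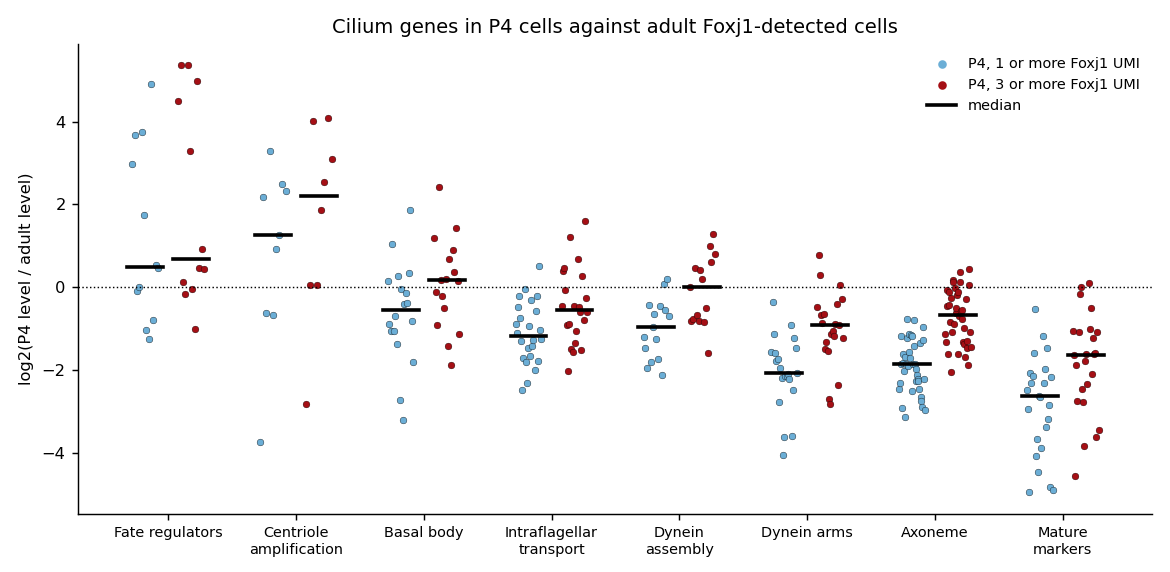
log2 ratio of the P4 to the adult level of each cilium gene, by role, for P4 cells with 1 or more and with 3 or more Foxj1 UMI. Points are genes with at least 20 UMI over both ages, and the dotted line marks equal levels. Medians for 3 or more are 1.39 for early, −0.26 for middle and −1.07 for late genes, against −0.22 over all such genes.

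Adult and P4 cells with Foxj1 also differed outside the cilium lists. Secretory genes summed to 62.7% (59.3 to 66.3) of the adult level in the 65 cells, with 8 of 23 measured higher and 8 lower, regional genes to 104% (96.2 to 113) and Notch genes to 178% (159 to 198). The Notch sum leaned on Dlk1, a non-classical ligand, with 169 UMI at P4 and 0 in the adult. Without it the sum was 142% (126 to 159), and of 10 Notch genes with at least 20 UMI 2 were higher, 2 lower and 6 within 2-fold, with a median log2 ratio of −0.03. DNA replication genes of the S phase stood at 463% (388 to 556) and genes of G2 and mitosis at 2889% (1871 to 4706), with 541 UMI against 21. Among adult cells with a Foxj1 UMI 154 of 168 were in clusters 1 and 3.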

How the data were processed

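The authors deposited raw counts (whole UMI per gene and cell, not normalized, per the values) and cluster numbers per cell. The submitters' processing notes list Cell Ranger, Seurat 2.3.4 and mm10, with no order or role. The adult table repeats barcodes under 2 prefixes, so 1 column per barcode was used.

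Counts were pooled over cells and scaled to 10000 UMI, with Python 3.11.15, numpy 2.4.6, pandas 2.3.3 and scipy 1.17.1. Levels have exact Poisson, shares exact Clopper-Pearson and ratios exact conditional intervals at 95%. A side at 0 was bounded with a floor of 3 counts over the group. P4 against adult used genes in both tables and left out 13.3% of the UMI of P4 cells with Foxj1. Deup1 was listed in the adult under another symbol, Ccdc67, and was matched by hand. Doublets were not called. Some list members are not reported here by name.

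The genes named are the 15 largest folds in each direction with at least 20 UMI, without ribosomal protein, mitochondrial, Gm and Rik genes, list members past 2-fold, and a set of 18 always given; values for Cdk1, Plk4, Krt8, Tubb5, Meis1 and other list members were added after they were seen. The cells, lists and most comparisons were chosen with earlier results of these data known. On simulated data with 53573 genes, for P4 cells with 1 or more against 0, 49 of 50 genes made 4-fold higher, 38 of 50 made 3-fold higher, 35 of 41 measured genes made 4-fold lower and 27 of 37 made 3-fold lower were called, as were 0.195% of unchanged genes. The simulated cells of each group shared 1 profile, without clusters or other differences between cells. These shares therefore cover sampling error only.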

Additional observations from a re-analysis of the deposited data

How the results depend on the processing

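Counts are given in the order higher genes, lower genes, early higher, late higher, secretory lower, regional different, which were 198, 35, 10, 40, 1 and 1. They were 636, 176, 17, 68, 2 and 4 with 2 or more Foxj1 UMI, 1121, 477, 18, 76, 6 and 9 with 3 or more, 102, 68, 0, 4, 2 and 0 after thinning to 1000 UMI, 642, 304, 4, 13, 2 and 7 in cells below the median depth, and 33, 0, 3, 14, 0 and 0 with a pseudocount of 0.5. With exactly 1 UMI the first 4 were 48, 103, 1 and 2. A minimum share of 25% gave 77, 6, 3 and 14. With 1 or 2 UMI, 24 genes were higher, with 0 early and 0 late genes. Without the 6 cells of 30 or more marker UMI per 10000, 48 were higher, with 5 early and 13 late. At or above the median depth 331 were higher and 73 lower. In cluster 0 alone the values were 300 and 56, with 0 secretory and 0 regional genes. Without the 25% of cells highest for cell cycle genes they were 311 and 74, with 2 secretory and 3 regional genes. With no minimum share 343 were higher and 2 secretory genes lower. Against the adult, 12 early genes were higher and 77 late genes lower, but 2 early after thinning, and 22 late with only the 6 marker-rich P4 cells and 44 with 3 or more UMI. Of the single genes past 2-fold, Myb changed sign with exactly 1 UMI (log2 fold −0.10) and Ccdc153 without the 6 cells (−0.47). Genes within 2-fold also did: Ovgp1 (main −0.17) ranged from −1.60 to 0.42, Hes1 (−0.15) from −1.72 to 0.22 and Pax8 (−0.06) from −0.88 to 0.41, with positive values for all 3 at exactly 1 and at 1 or 2 UMI. The causes were not tested, apart from the fewer cells or genes that each setting leaves. The settings of 3 or more, of 1 or 2, of 3 or 4, without the named list members and without the cell of highest marker level were added after seeing the data. No paired analysis was possible because each age is 1 library without replicate numbers.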

Other observations

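Cell cycle genes were mixed in cells with strong Foxj1, with comparisons chosen after the data were seen. With 3 or more Foxj1 UMI, S phase genes stood at 7.45 per 10000 against 9.80 in cells with 0, and genes of G2 and mitosis at 7.02 against 8.27. Of 19 measured mitotic genes 5 were lower (Birc5, Ube2c, Nusap1, Cdca3 and Ccna2), which act in chromosome segregation or its timing, and Aurka was higher. Within the 66 deepest cells S phase genes stood at a ratio of 0.50 (0.41 to 0.60), with 0 of 22 higher and 5 lower, and mitotic genes at 0.61 (0.50 to 0.73), with 0 of 21 higher and 8 lower.

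Early genes were also found in a few cells without a Foxj1 UMI. Of the 198 such cells 12 had 2 or more UMI of the 6 forming genes, with at most 3 in any cell, and 6 of the 12 were among the 66 deepest cells. One of them stood out: a cell of only 1872 UMI had summed early genes at 64.1 and late genes at 90.8 per 10000, with 1 UMI each of Mcidas, Deup1, Cdc20b and Trp73.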
